A study of Mus musculus with 8 samples.

Results

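Respiratory complex I, the NADH:ubiquinone oxidoreductase of the inner mitochondrial membrane, takes electrons from NADH, passes them along a chain of iron-sulfur clusters to ubiquinone, and pumps protons across the membrane. Its core subunits, which have bacterial counterparts, do this work, and the accessory subunits surround them and are needed for assembly and stability. Some core subunits are encoded by mitochondrial DNA and the rest, with all accessory subunits, by nuclear genes that carry the Nduf symbols. The genes described here are the protein-coding genes whose symbols begin with Ndufa, Ndufb, Ndufc, Ndufs or Ndufv, leaving out the Ndufaf assembly factors. This rule took in 38 of the 54532 genes counted, of which 7 encode core and 29 accessory subunits. The other 2, Ndufa4 and Ndufa4l2, bear the family's name although Ndufa4 is today placed in complex IV. The mouse form of Ndufb1 is listed as Ndufb1-ps with a non-coding biotype, so the rule did not take it in.

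Gene counts came from polyadenylated RNA of mouse spleen CD4 T cells, all of them cultured for 2 days under conditions that drive pathogenic Th17 differentiation. There were 4 libraries labelled WT and 4 labelled CYP1B1 knockout, and the series title asks what this cytochrome P450 does for such cells, their redox balance and their mitochondria. The sources used here give neither the allele, nor the cells in which it is lost, nor the strain, sex and age of the mice. They also do not say whether the libraries of a label stem from separate mice or cultures. The p-values therefore rest on a spread among libraries that may be technical.

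Total counts ran from 8918342 in wild type 2 to 15667313 in knockout 4. Cyp1b1 goes against its label, at 4.36 ± 0.432 CPM (counts scaled to library size, SD, n = 4) under the wild type label and 184.8 ± 47.9 CPM under the knockout label, so every direction below is one between labels. Summed T cell markers lay between 2101 and 2247 CPM in all 8 libraries. Of these 6 markers 1 was called higher (against 15.7% of all genes tested) and none lower. Single members differed in both directions, Lck averaging 453.8 and 517.1 CPM and Cd4 693.3 and 624.1 CPM under the wild type and knockout labels. The Th17, B cell and myeloid lists held more called genes. Of 6 Th17 markers 4 were lower in libraries labelled knockout (against 14.6% of all genes), Il17a and Ccr6 among them. Another 1, Il23r, was higher (against 15.7%). The Th17 list summed to 809.0 to 1156 CPM under the wild type label and to 659.3 to 924.3 CPM under the knockout label. Most of this sum was Il17f, which averaged 620.9 and 586.5 CPM. Likewise 9 of 10 B cell markers were lower in libraries labelled knockout (against 14.6% of all genes). Their summed level ranged from 480.7 to 740.3 CPM under the wild type label and from 392.4 to 560.4 CPM under the knockout label. Most of it was Ighm, which averaged 345.9 and 342.5 CPM. The 8 myeloid and dendritic markers summed to 36.2 to 41.0 against 15.4 to 23.8 CPM, with Clec9a at 0 throughout. Nearly all of this sum was Flt3, at a mean of 23.9 and 11.3 CPM, and Cd68, at 12.3 and 6.51 CPM. The rest averaged no more than the 0.873 CPM of Itgax, and Adgre1 among them was higher under the knockout label. Only 3 of the 8 had enough counts to test, and 2 of these were lower. The part of these marker lists in the results below was not tested. In bulk RNA fewer cells of a type and less RNA per cell cannot be told apart. Wild type 1, knockout 1 and knockout 4 fell on one side of the main axis of spread within labels, which held 23.5% of that variance.

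Complex I subunit transcripts were modestly higher in the libraries labelled knockout. Of 37 genes with enough counts to test, 14 rose, 1 fell and 22 did not pass (edgeR's quasi-likelihood test, adjusted p under 0.05 over all 14428 genes tested, two-sided). This is 37.8% of the subunit genes against 15.7% of all genes tested that were called higher, and 2.7% against 14.6% called lower. The median log2 fold change was 0.19 over the subunits and −0.00099 over all genes. Estimates were positive for 31 subunits and negative for 6, and ran from −0.28 to 0.93. In 10 subunits every library labelled knockout lay above every one labelled wild type, against 15.1% of all genes, and in 1 every one lay below, against 14.1% of all genes. Called rises ran from 1.15-fold to 1.91-fold. Over all genes 2272 were higher and 2108 lower, and scaling by library totals alone turned this to 1745 and 2689, with 13 of the 14 subunit rises still called.

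Summed over the 37 genes, subunit transcripts came to 1875, 1678.5, 1754 and 1785 CPM in wild type 1 to 4 and to 2117, 1949, 1981 and 1986 CPM in knockout 1 to 4. The labels did not overlap in this sum, which averaged 1773 ± 81.5 and 2008 ± 74.5 CPM (SD, n = 4). Knockout 1 held the highest value of 19 of the 37 genes, and wild type 2, the shallowest library, the lowest value of 18. With knockout 2 and 3 alone against all 4 wild type libraries, 9 of the 14 rises were called. With wild type 2 left out, 11 were. Over all genes tested, those called higher also fell in number, from 2272 to 1795 and 1785 in these 2 settings.

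**Figure D1:**
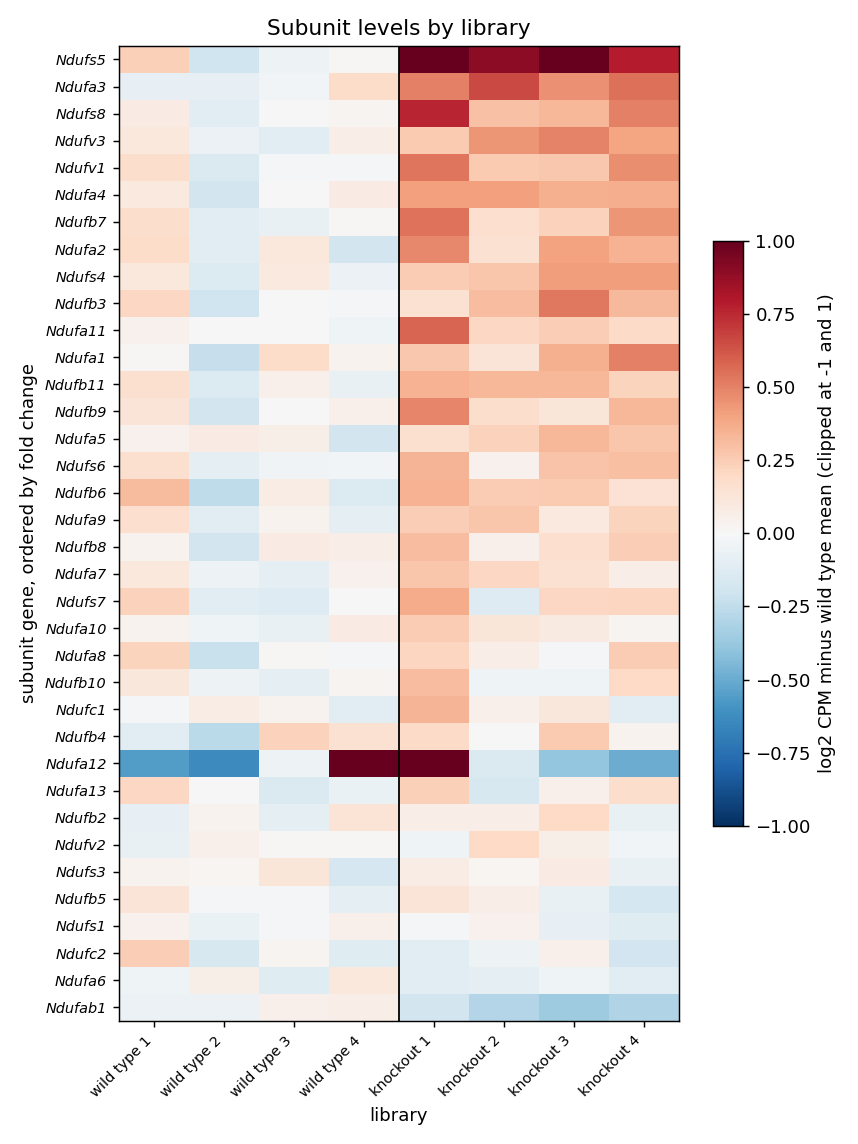
Difference of each subunit's log2 CPM from its mean over the 4 libraries labelled wild type (colour, clipped at −1 and 1), with 36 of the 37 tested genes in rows and the 8 libraries in columns. Most of the upper rows are red in all 4 knockout columns, Ndufab1 at the bottom is blue in all 4, and Ndufa12 is red in wild type 4 and knockout 1 alone.

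Ndufs5, an accessory subunit on the intermembrane side of the proximal membrane arm, showed the largest difference, and its reading depends on a near-identical gene copy. The gene lies on the reverse strand of chromosome 4 (GRCm38, chr4:123712710-123718202). A processed pseudogene, BC002163 (chr16:42955631-42955949, forward strand), aligns over 319 bases, which take in all 318 coding bases of Ndufs5, with 2 differences. These are T81C and A105G, given as the Ndufs5 base, its position counted from 1 at the first coding base, and the base of the copy. The stretch that holds both is shown because only there do the coding sequence and its copy differ, with the differing bases in capitals (5′ to 3′, coding positions 61 to 125, GENCODE M21 transcripts).
Ndufs5: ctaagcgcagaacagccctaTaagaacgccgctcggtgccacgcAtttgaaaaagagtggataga
BC002163: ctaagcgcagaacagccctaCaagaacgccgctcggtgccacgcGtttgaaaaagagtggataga

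Ndufs5 stood at 21.3, 15.8, 17.5 and 18.3 CPM in wild type 1 to 4 and at 36.3, 33.6, 38.8 and 31.1 CPM in knockout 1 to 4. The labels were far apart, with a log2 fold change of 0.93 (SE 0.10, adjusted p = 3.86e-07). The pseudogene went the other way. BC002163 had 164, 102, 156 and 148 counts in wild type 1 to 4 and 24, 33, 16 and 65 in knockout 1 to 4, a log2 fold change of −2.19 (SE 0.24, adjusted p = 4.59e-07). Added together, gene and copy came to 32.9, 27.0, 28.4 and 28.5 CPM under the wild type label and to 38.0, 35.9, 40.0 and 35.3 CPM under the knockout label. The sum still separated the labels without overlap, but with a log2 fold change of 0.35 (SE 0.088, adjusted p = 0.00407), which lies among the other called subunits. The sources used here do not say how reads that match both loci were assigned, and from which locus they came was not tested.

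**Figure D2:**
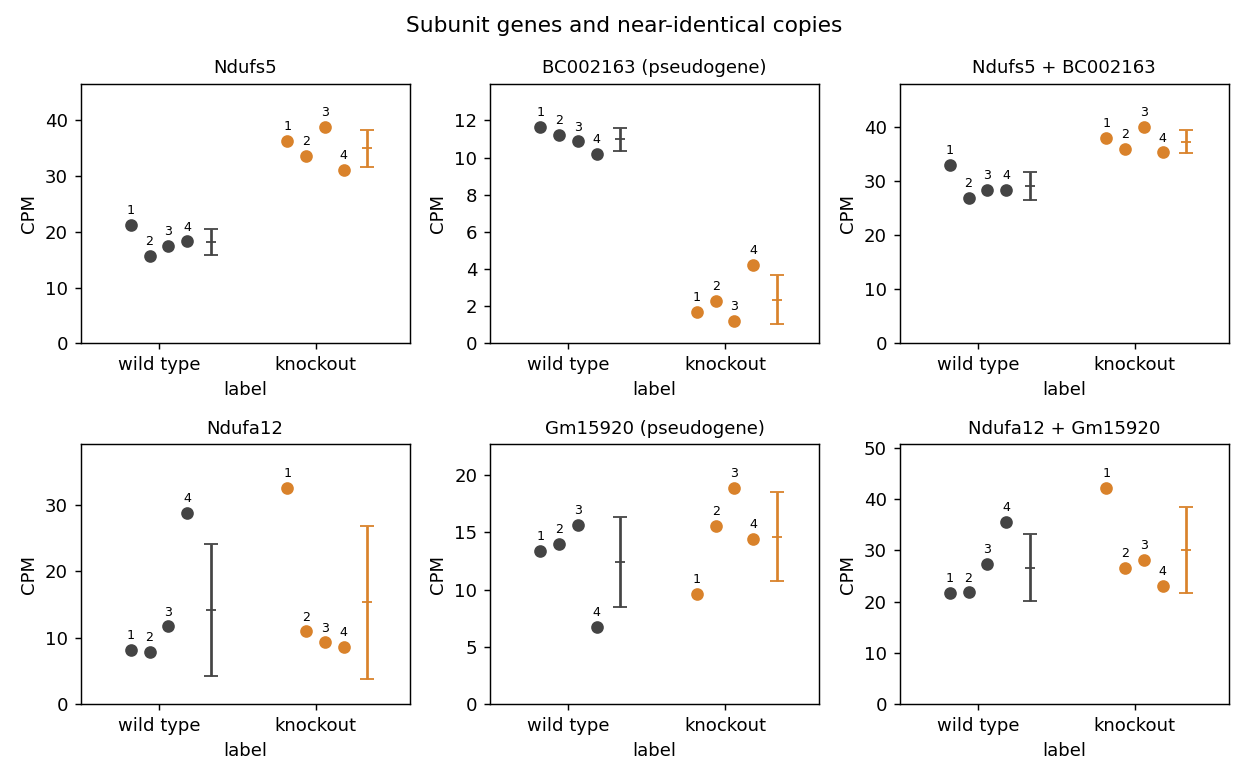
CPM of Ndufs5 and Ndufa12 (left), of their near-identical processed pseudogenes (middle) and of both added (right), one point per library with its replicate number; the bars show the mean and SD of 4. Ndufs5 and BC002163 separate the labels in opposite directions, and the high Ndufa12 libraries, wild type 4 and knockout 1, are the lowest of their label for Gm15920.

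Among the 7 core subunits, 2 rose (28.6%, against 15.7% of all genes), none fell (against 14.6%) and 5 did not pass. The median log2 fold change was 0.049. Ndufs8, which carries iron-sulfur clusters on the way to ubiquinone, stood at 35.9, 31.5, 34.1 and 34.6 CPM in wild type 1 to 4 and at 57.6, 41.6, 42.7 and 48.3 CPM in knockout 1 to 4. The labels did not overlap, and knockout 1 was highest (log2 fold change 0.48, SE 0.096, adjusted p = 0.000559). Ndufv1, which binds NADH and its flavin cofactor, stood at 66.2, 53.0, 58.0 and 58.2 CPM against 85.2, 70.2, 70.9 and 81.0 CPM. It too showed no overlap (log2 fold change 0.38, SE 0.082, adjusted p = 0.00106). Both genes lie on chromosome 19, Ndufs8 at chr19:3908870-3912717 and Ndufv1 at chr19:4007497-4012806.

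The other core subunits did not pass. Ndufv2, the iron-sulfur partner of Ndufv1, averaged 81.7 ± 2.87 and 84.5 ± 6.8 CPM (log2 fold change 0.049, 95% interval −0.098 to 0.20). Ndufs1, which holds further clusters, averaged 82.1 ± 3.14 and 79.6 ± 4.05 CPM (−0.046, interval −0.19 to 0.094). For these 2 and for Ndufs3, at 58.6 ± 4.87 and 59.6 ± 2.91 CPM (0.024, interval −0.14 to 0.18), the intervals leave out a rise of the size of Ndufv1. Ndufs7, which holds the last cluster before ubiquinone, averaged 47.5 ± 5.56 and 53.5 ± 7.43 CPM (0.17, interval −0.035 to 0.37). The upper end of its interval lies just under the Ndufv1 estimate of 0.38, which has an interval of 0.21 to 0.55. The signs of Ndufv2 and Ndufs3 turned when libraries were scaled by their totals alone.

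Of the 29 accessory subunits, 11 rose, 1 fell and 17 did not pass, with a median log2 fold change of 0.21. They summed to 1203 ± 67.7 CPM under the wild type label and 1388 ± 49.4 CPM under the knockout label, against 523.9 ± 10.8 and 560.4 ± 26.2 CPM for the core. Thus 37.9% of accessory and 28.6% of core subunits rose, against 15.7% of all genes. The difference between the accessory and core shares was not tested. With knockout 2 and 3 alone, 6 accessory subunits were called higher (and 1795 of all genes, against 2272).

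In the matrix arm, where NADH is oxidised, 6 of 16 subunits rose (37.5%, against 15.7% of all genes), the core genes included. Ndufv3, an accessory subunit at the NADH-oxidising tip, stood at 107.2, 96.1, 92.3 and 104.8 CPM in wild type 1 to 4 and at 119.9, 135.6, 140.7 and 131.1 CPM in knockout 1 to 4. Its labels did not overlap (log2 fold change 0.40, SE 0.071, adjusted p = 0.000174). Ndufs4, whose loss in humans and mice causes a Leigh-like disease, averaged 34.7 ± 2.85 and 44.0 ± 2.71 CPM, also without overlap (0.34, SE 0.085, adjusted p = 0.00404). Ndufa2 rose by 0.34 on the log2 scale with overlapping labels. Ndufa9, which holds a bound nucleotide near the ubiquinone site, passed narrowly (0.21, adjusted p = 0.0447) and lost its call in 11 of 22 alternative analyses. Ndufs6, a zinc-binding subunit (0.24, adjusted p = 0.0601), Ndufa5 (0.25, adjusted p = 0.0812), Ndufa7 (0.18) and Ndufa6 (−0.090) did not pass.

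In the proximal membrane arm 4 of 9 subunits rose (44.4%, against 15.7% of all genes), and the median log2 fold change was 0.12. Ndufa3, a small single-pass membrane subunit, stood at 35.6, 35.6, 37.1 and 42.9 CPM in wild type 1 to 4 and at 53.5, 59.6, 51.8 and 55.1 CPM in knockout 1 to 4. It had the largest difference after Ndufs5 and no overlap (log2 fold change 0.54, SE 0.083, adjusted p = 3.09e-05), and no near-identical copy was found for it. Ndufa11 (0.31, adjusted p = 0.0128) and Ndufa1 (0.31, adjusted p = 0.0194) rose as well. Without knockout 1 the adjusted p of Ndufa11 was 0.0782, and without wild type 2 that of Ndufa1 was 0.0906. Ndufa8, Ndufa10, Ndufa13, Ndufc1 and Ndufc2 did not pass, with log2 fold changes from −0.086 to 0.12.

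In the distal membrane arm, beside the proton-pumping subunits farthest from the matrix arm, 3 of 10 subunits rose (30%, against 15.7%). Ndufb11 stood at 99.6, 81.0, 92.4 and 84.9 CPM in wild type 1 to 4 and at 113.3, 112.4, 112.4 and 104.1 CPM in knockout 1 to 4. The labels did not overlap (log2 fold change 0.30, SE 0.072, adjusted p = 0.00252). Ndufb7 (0.35, adjusted p = 0.00523) and Ndufb3 (0.32, adjusted p = 0.0194) rose with overlapping labels. The other 7 did not pass, from Ndufb5 at −0.011 to Ndufb9 at 0.28 (adjusted p = 0.0521).

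**Figure D3:**
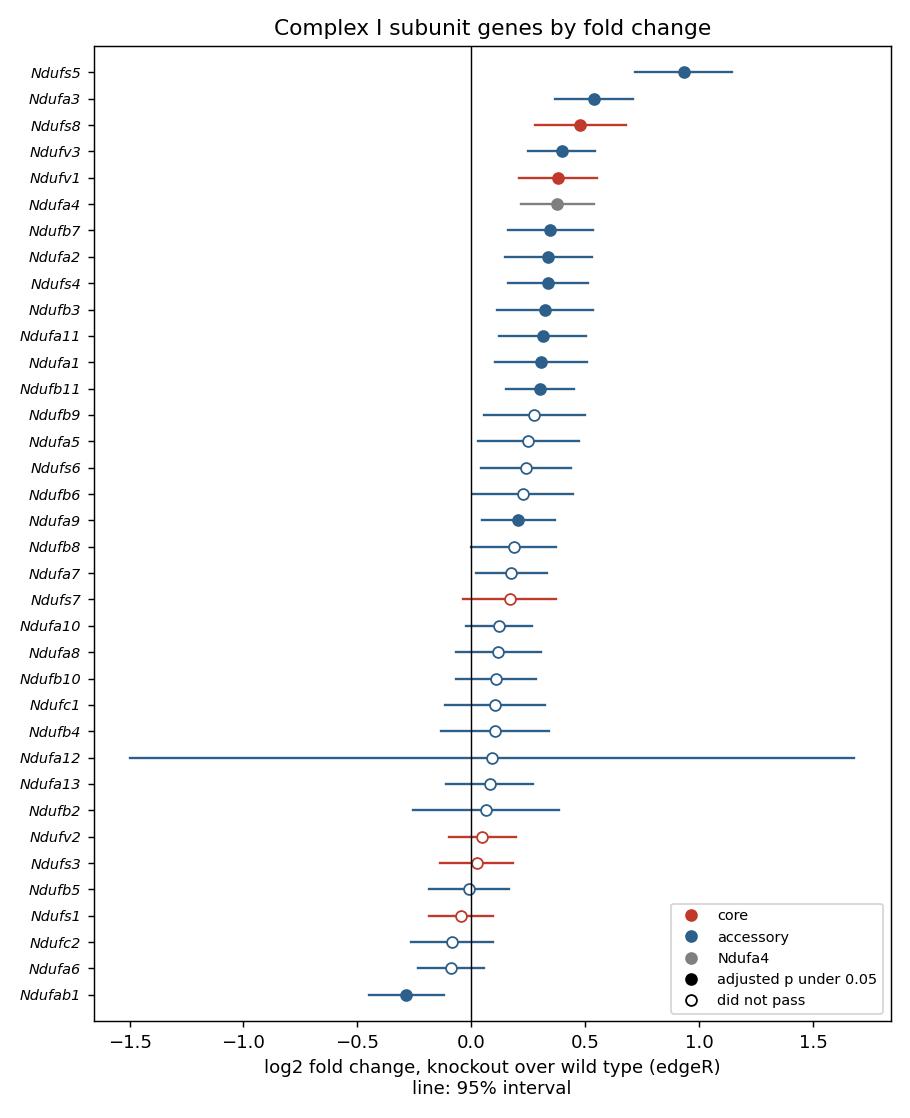
Log2 fold change, knockout over wild type label, of 36 of the 37 tested genes with its 95% interval, ordered by size; filled points passed an adjusted p of 0.05, and colours give core, accessory and Ndufa4. Ndufab1, at −0.28, is the filled point left of 0, and the widest interval, −1.50 to 1.68, belongs to Ndufa12.

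Ndufab1 was the subunit that fell. It encodes the mitochondrial acyl carrier protein, which sits in both arms of complex I and also serves mitochondrial fatty acid synthesis and iron-sulfur cluster assembly. It stood at 42.0, 42.1, 45.4 and 45.7 CPM in wild type 1 to 4 and at 38.6, 35.7, 34.2 and 35.5 CPM in knockout 1 to 4, without overlap (log2 fold change −0.28, SE 0.080, adjusted p = 0.00895). Its processed pseudogenes Gm4459 and Ndufab1-ps averaged 4.49 ± 0.883 and 3.81 ± 1.03 CPM under the wild type label and 4.55 ± 0.698 and 4.57 ± 0.764 CPM under the knockout label. With both added to it the log2 fold change was −0.21 (SE 0.073, adjusted p = 0.0340). Its call was lost without a filter on low counts (adjusted p = 0.0516) and with knockout 1 and 4 alone (adjusted p = 0.0510). Ndufa6 and Ndufb9, subunits that bind the acyl carrier protein in the 2 arms, did not pass. No other subunit was lower at an unadjusted p under 0.05, and DESeq2 and limma-voom each called 1 subunit lower.

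Ndufa12, an accessory subunit of the matrix arm, was set apart by its spread. It had 116, 71, 168 and 419 counts in wild type 1 to 4 and 461, 158, 121 and 133 in knockout 1 to 4. Wild type 4 and knockout 1 thus stood at 28.8 and 32.6 CPM, and the other 6 libraries between 7.82 and 11.7 CPM. The coefficient of variation was 70.2% under the wild type label and 75.0% under the knockout label, against at most 17.7% and 15.3% in the other 36 subunits. Of all genes tested, 0.527% varied as much within labels. The 2 labels could not be told apart (log2 fold change 0.092, SE 0.65, adjusted p = 0.937).

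Ndufa12 also has a near-identical processed pseudogene, Gm15920 (chr5:130188395-130188796), which aligns over 402 bases with 2 differences, A147G and T426C, written as for Ndufs5. Both stretches are shown, with the differing base in capitals, since no other base separates the 2 sequences over the aligned length (5′ to 3′, coding positions 127 to 167 and 406 to 446).
Ndufa12, 127 to 167: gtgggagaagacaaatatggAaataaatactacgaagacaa
Gm15920, 127 to 167: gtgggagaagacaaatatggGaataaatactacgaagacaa
Ndufa12, 406 to 446: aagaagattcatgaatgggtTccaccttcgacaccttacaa
Gm15920, 406 to 446: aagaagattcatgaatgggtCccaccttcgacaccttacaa

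Gm15920 stood at 13.4, 14.0, 15.7 and 6.74 CPM in wild type 1 to 4 and at 9.62, 15.6, 18.9 and 14.5 CPM in knockout 1 to 4. It was lowest in the libraries where Ndufa12 was highest. Gene and copy together came to 21.7, 21.8, 27.4 and 35.5 CPM and to 42.2, 26.6, 28.2 and 23.1 CPM. Wild type 4 and knockout 1 remained highest in this sum, whose spread was smaller than that of the gene alone (log2 fold change 0.16, SE 0.22, adjusted p = 0.628). From which locus the reads came was not tested here either. Of the 38 genes, 8 had a counted copy elsewhere of at least 95% identity over at least 150 bases. Adding the copies moved the fold changes of Ndufb3, Ndufb4, Ndufb11, Ndufs3 and Ndufs6 little, to 0.32, 0.10, 0.30, 0.036 and 0.23.

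Rises were called in 47.4% of the subunits with short genes and in 27.8% of those with long genes, split at the median length of 1569 bases (the deposited length, which for nearly all of them is that of all annotated exons). Of 19 short genes, 9 rose and 10 did not pass, with a median log2 fold change of 0.28. Of 18 long genes, 5 rose, 1 fell and 12 did not pass, with a median of 0.11. Short genes summed to 688.1 ± 50.2 CPM under the wild type label and 830.1 ± 45.6 CPM under the knockout label, and long genes to 1085 ± 33.1 and 1178 ± 29.4 CPM. The difference between short and long genes was not tested.

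Across all genes tested, calls in both directions were rarer among short genes. At or under 1569 bases 11.9% were called higher and 8.22% lower, and above it 16.5% and 15.9%, with median log2 fold changes of 0.014 and −0.0038. Among protein-coding genes 21.8% of 900 short and 17.4% of 11008 long ones were called higher, with median log2 fold changes of 0.095 and 0.0056. Over the 37 subunits the log2 fold change went down with log2 length, with Pearson's r of −0.448 and Spearman's rho of −0.384, a description over genes that share libraries. Fold change and mean level were less related (r −0.119, rho −0.158).

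Length and subunit class overlap: 17 of the 29 accessory genes are short, and of the 7 core genes only Ndufs8 is. Among accessory subunits 7 of 17 short genes (41.2%) and 4 of 12 long genes (33.3%) rose, with medians of 0.25 and 0.15. Of all genes on the same side of the split 11.9% and 16.5% rose, and of protein-coding ones 21.8% and 17.4%. The core genes other than Ndufs8 are long, and 1 of these 6 rose, with a median of 0.036. This is 16.7%, near the 16.5% of all long genes. An offset for gene length in each library left 13 rises, 9 of them in short genes (and 2269 rises over all genes, against 2272). With the split at 1000 bases, 6 of 10 short and 8 of 27 long genes rose, against 15.7% of genes of all lengths. The share of all genes on each side of 1000 bases is not given here.

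**Figure D4:**
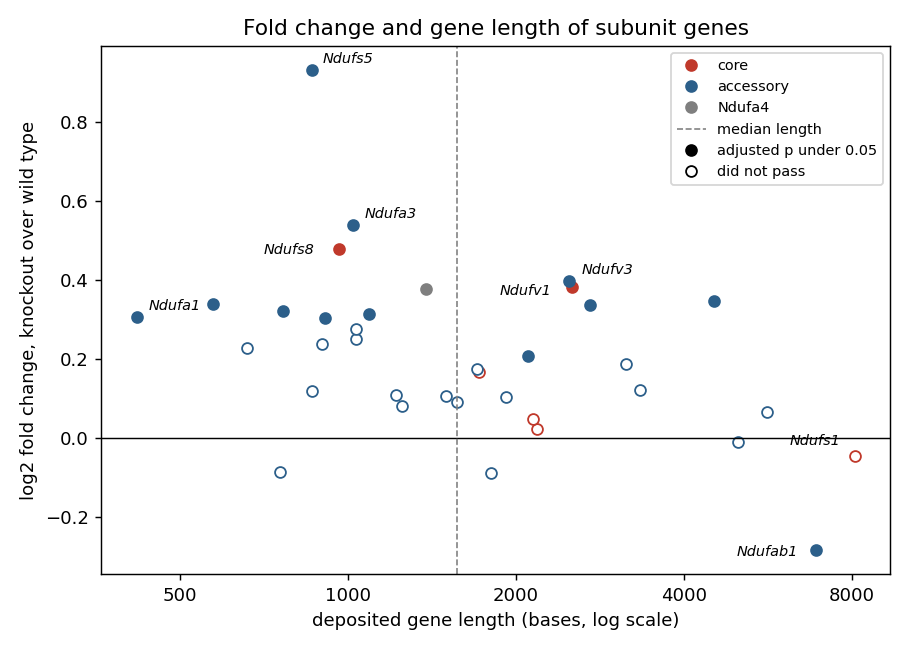
Log2 fold change against deposited gene length (log scale) for 36 of the 37 tested genes; filled points passed an adjusted p of 0.05, colours give the class and the dashed line marks 1569 bases. Ndufs5, Ndufa3 and Ndufs8, the highest points, lie left of the line, and Ndufab1 and Ndufs1 lie at the far right below 0.

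Levels per gene length spanned a wide range in both labels. Ndufb11 was highest, at 98.5 ± 9.10 CPM per kilobase under the wild type label, followed by Ndufc2 at 78.8 ± 10.4 and Ndufa1 at 77.4 ± 9.0. Ndufc2 and Ndufa1 differed by less than their spread. The median subunit stood at 28.3 CPM per kilobase. Ndufb2 was lowest at 1.07 ± 0.0804, and Ndufab1, at 6.36 ± 0.298, came next. Both of these have long deposited lengths, of 5628 and 6883 bases, which lowers such a value where most transcripts are shorter. Before division by length Ndufb2 was still the lowest tested subunit under the wild type label, at 6.02 CPM, with Ndufa12 next at 14.1 CPM. Ndufab1 stood at 43.8 CPM. The order of levels was nearly the same under the 2 labels, with a Spearman's rho of 0.965 over 37 genes.

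**Figure D5:**
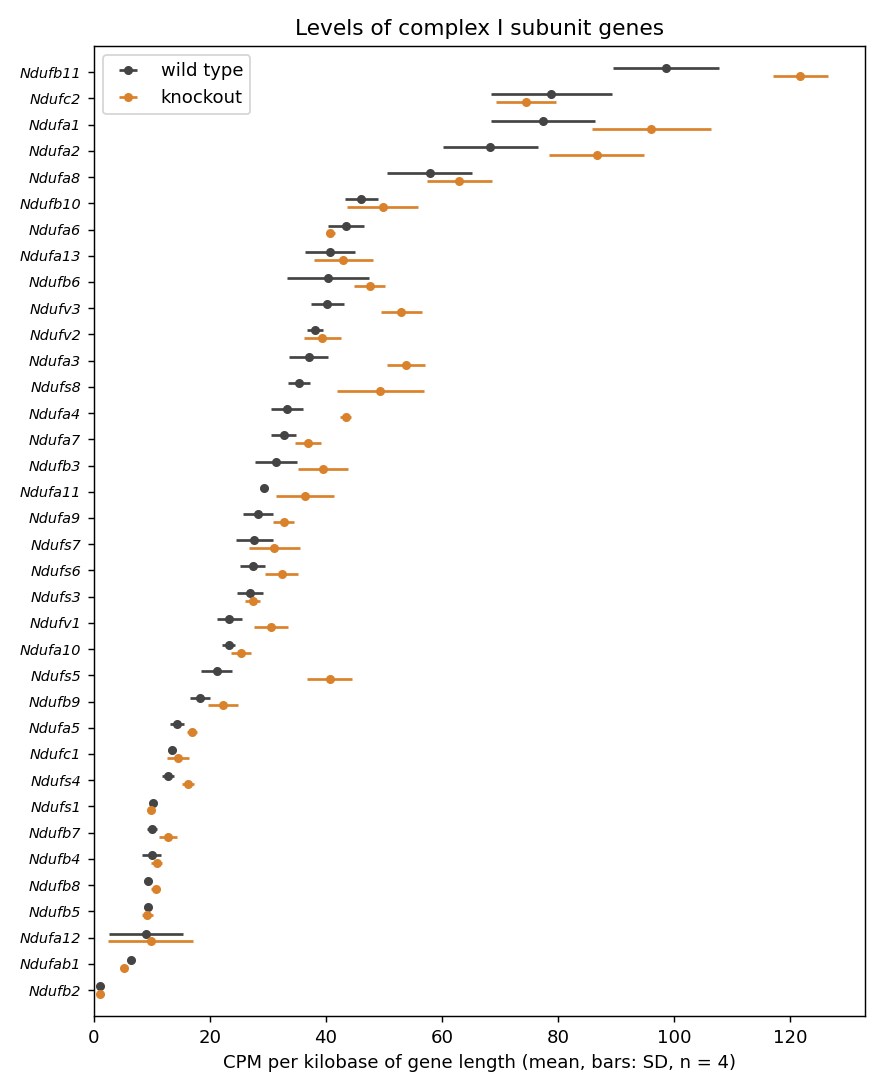
CPM per kilobase of deposited gene length for 36 of the 37 tested subunit genes, mean and SD of the 4 libraries of each label, ordered by the wild type label. Levels run from 1.07 for Ndufb2 to 98.5 for Ndufb11 under the wild type label, and the 2 labels lie close together for most genes.

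Ndufa4, now placed in cytochrome c oxidase, rose with the complex I genes it was named after. It stood at 48.9, 40.4, 45.9 and 48.5 CPM in wild type 1 to 4 and at 61.0, 61.0, 58.6 and 59.0 CPM in knockout 1 to 4, without overlap (log2 fold change 0.38, SE 0.077, adjusted p = 0.000638). Without it 13 of 36 subunits rose. Its paralog Ndufa4l2, known as a hypoxia-induced gene, had 0 counts in all wild type libraries and 2, 0, 0 and 1 in knockout 1 to 4, and failed the filter on low counts. Ndufb1-ps averaged 18.9 ± 3.69 and 20.7 ± 2.61 CPM and did not pass (adjusted p = 0.528).

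Exons of 17 of the 38 genes overlap those of another counted gene, mostly on the opposite strand, and the sources do not say that counting used strand. Where reads of both partners cannot be told apart, the values of these genes are uncertain. Among called genes, Ndufb11 shares 117 bases with Rbm10, Ndufa11 shares 70 with Vmac, Ndufa9 shares 67 with 1700018A23Rik, Ndufa2 shares 66 with Tmco6, Ndufa3 shares 4 with Tfpt and Ndufab1 shares 269 with Gm44986. Ndufs8, Ndufv1, Ndufv3, Ndufs4, Ndufs5, Ndufb3, Ndufb7, Ndufa1 and Ndufa4 overlap none. Of the others, Ndufb5 shares the longest stretch, 616 bases with Mrpl47, and Ndufs1 489 with Ino80dos and 9 with the far more abundant Eef1b2. Overlapped genes that did not pass include Ndufa13, Ndufb2, Ndufb6 and Ndufb8, with log2 fold changes of 0.080, 0.065, 0.23 and 0.19.

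Assembly factors build complex I without staying in it. Of 18 genes tested, 1 rose (5.56%, against 15.7% of all genes), 2 fell (11.1%, against 14.6%) and 15 did not pass, with a median log2 fold change of −0.0083. Ecsit, part of the intermediate assembly complex in the inner membrane, averaged 19.8 ± 0.809 and 24.7 ± 2.84 CPM (0.32, SE 0.10, adjusted p = 0.0198). Tmem70, an inner membrane protein that also serves ATP synthase assembly, averaged 42.0 ± 1.07 and 35.6 ± 2.30 CPM (−0.24, adjusted p = 0.0273), and Ndufaf4, an early assembly factor, 19.2 ± 2.86 and 14.95 ± 2.78 CPM (−0.37, adjusted p = 0.0395). No call on these factors held in every analysis with a library left out, where 0 to 2 rose and 0 to 2 fell. Knockout 2 and 3 alone called none of them.

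The 7 core subunits encoded by mitochondrial DNA were not called in either direction by edgeR, DESeq2 or limma-voom, and none had an unadjusted p under 0.05. Their median log2 fold change was −0.092, from −0.47 to 0.14. The median SE was 0.24, against 0.090 over the nuclear subunits, so a difference as small as the nuclear median of 0.19 could go uncalled. The 7 genes summed to 4464 ± 940 CPM under the wild type label and 4245 ± 718 CPM under the knockout label. This was a wider spread than that of the nuclear subunits. By library the sums were 3079, 4879, 4741 and 5157 CPM in wild type 1 to 4 and 3782, 5094, 4568 and 3534 CPM in knockout 1 to 4. Wild type 1, knockout 1 and knockout 4, the libraries that lay together on the axis of spread within labels, were the lowest. Without wild type 1, mt-Nd2 and mt-Nd4l were called lower, and with knockout 1 and 4 alone mt-Nd4l and mt-Nd6 were. These genes were named after their values were seen.

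Nuclear subunit genes are classically placed under NRF1, YY1, ETS family factors and SP1, so RefSeq promoter windows (GRCm38.p6, 250 bases before to 50 after each start) were searched on both strands for their motifs. Of the 38 genes, 33 had a window, with 35 windows in all. The NRF1 motif was in 22.9% of these and in 4.6% of all 32851 windows. The YY1 motif AAGATGGCG was in 14.3% against 1.4%. The ETS motif CCGGAAG (11.4% against 8.86%), the SP1 motif GGGCGG (45.7% against 35.7%) and the CCAAT box (28.6% against 37.4%) were closer to the share of all windows. By call, the NRF1 motif was in 2 of 13 genes that rose and 5 of 19 that did not pass, and the YY1 motif in 2 and 3. A match is a string of letters, not a bound site. The windows of Ndufs5 (chr4:123718137-123718436, reverse strand), Ndufs8 (chr19:3912725-3913024, reverse strand) and Ndufab1 (chr7:122101799-122102098, reverse strand) are shown, the accessory gene with the largest rise when its copy is not added to it, the core gene with the largest rise and the gene that fell, 5′ to 3′ with motif matches in capitals. The match in Ndufs5 is to NRF1, those in Ndufs8 are to the CCAAT box and, last, to ETS, and that in Ndufab1 is to SP1.
Ndufs5: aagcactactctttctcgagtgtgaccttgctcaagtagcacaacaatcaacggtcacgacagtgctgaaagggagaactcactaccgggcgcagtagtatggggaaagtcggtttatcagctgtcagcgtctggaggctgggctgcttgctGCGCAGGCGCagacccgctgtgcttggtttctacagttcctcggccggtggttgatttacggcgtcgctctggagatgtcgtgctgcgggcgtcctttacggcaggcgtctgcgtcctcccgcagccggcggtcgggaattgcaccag
Ndufs8: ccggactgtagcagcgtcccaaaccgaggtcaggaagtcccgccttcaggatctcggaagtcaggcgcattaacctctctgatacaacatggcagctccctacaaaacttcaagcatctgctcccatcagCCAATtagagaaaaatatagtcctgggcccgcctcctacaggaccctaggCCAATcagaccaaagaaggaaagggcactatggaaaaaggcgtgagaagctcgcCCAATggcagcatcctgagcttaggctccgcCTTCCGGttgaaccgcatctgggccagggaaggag
Ndufab1: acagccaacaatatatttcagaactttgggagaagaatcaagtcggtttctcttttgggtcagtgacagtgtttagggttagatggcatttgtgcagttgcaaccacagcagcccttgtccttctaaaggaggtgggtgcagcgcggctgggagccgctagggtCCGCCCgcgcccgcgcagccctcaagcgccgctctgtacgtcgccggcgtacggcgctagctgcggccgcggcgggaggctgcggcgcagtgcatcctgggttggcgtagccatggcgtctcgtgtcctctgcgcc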

How the data were processed

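The authors deposited 1 table of raw counts per gene for 8 libraries, with gene identifiers, symbols, positions, biotypes and gene lengths; its whole numbers are not normalized. Reads were processed with fastp, per the submitters' processing notes. The sources used here do not give the aligner, the counter, its use of strand or its treatment of reads that match several loci. Positions are GRCm38: of 54532 identifiers 54409 are in GENCODE M21, 53499 with the same start and end.

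Counts were fitted in R 4.3.3 with edgeR 4.0.16 (TMM scaling, filterByExpr with a minimum count of 10, robust quasi-likelihood F-test with the label alone in the model, Benjamini-Hochberg adjustment over 14428 genes). The common biological coefficient of variation was 0.0895. Total counts of 8918342 to 15667313 set the precision. CPM are TMM-scaled. Standard errors are the log2 estimate divided by the root of its F value, and intervals are at 95%. Every pair of replicates was farther apart than sampling noise, and each library was counted once. Such a spread cannot show whether the libraries stem from separate mice or cultures. On simulated counts, with 64, 69 and 65 genes changed 1.5-, 2- and 4-fold, the test recovered 57.8%, 82.6% and 100% of them. False calls made up 8.62% of the simulated calls, above the nominal rate. The altered genes were a small part of the 14204 in that run, whereas 4380 of 14428 real genes passed. The adjustment depends on this share, so neither the recovery nor the false-call figure carries over to the real calls. Changes under 1.5-fold, the size of most called subunit rises, were not simulated. Replicate numbers were not used to pair the samples, since the sources do not say what a shared number means. Alternatives were DESeq2 1.42.0, limma-voom (limma 3.58.1), other scalings and filters, a length offset, a replicate block, libraries left out and, added after the data were seen, counts of processed pseudogenes added to their gene. Copies were sought with blastn 2.17.0 among GENCODE M21 transcripts, and gene and copy were compared base by base in Python 3.11.15.

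Members and lists were chosen with earlier results of these data known. Values are given for the 8 genes with the smallest p, genes called lower, core subunits, the highest and lowest levels per kilobase, genes outside complex I or failing the filter, genes that overlap another, and called assembly factors. Some values that this rule asks for are not reported here, though counts and sums cover all genes. Ndufa12 and the pseudogenes were added after their values were seen. Coa1, the 19th assembly factor listed, was not analysed here.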

Additional observations from a re-analysis of the deposited data

Results flagged for a closer look

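In 74 groups of 4 libraries (the 37 tested genes under each label), 4 held a library farther from the others than Dixon's 95% critical value allows, and chance gives about 1 in 20. Ndufa12 stood at 32.6 CPM in knockout 1 against 8.62 to 10.96 CPM in knockout 2 to 4. Ndufa11 stood at 47.8 CPM in knockout 1 against 36.4 to 37.9 CPM in the other 3. Ndufb11 was lowest in knockout 4, at 104.1 CPM, with the nearest library at 112.4 CPM. Ndufa5 was lowest in wild type 4, at 12.9 CPM, with the nearest library at 15.1 CPM.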

How the results depend on the processing

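The count of subunits that rose stayed within 1.5 times of 14 in 21 of 22 alternatives and ran from 11 to 17 with a library left out. It was 9 with knockout 2 and 3 alone, where 1795 of all genes rose against 2272. Ndufs5, Ndufa3, Ndufa4, Ndufb11, Ndufs4, Ndufs8, Ndufv1 and Ndufv3 kept their call in all 22, Ndufs5 between 0.35 and 1.07. No subunit fell when the low-count filter was dropped or when knockout 1 and 4 stood alone (0 in both). With knockout 2 and 3 alone, 6 accessory and 3 long-gene subunits rose, and 8 long-gene subunits rose with the split at 1000 bases. The core median was −0.0014 with library totals, 0.088 without a filter and 0.11 for wild type 2, 3 and 4 against knockout 2 and 3. Assembly factors ran from 0 to 2 in both directions with a library left out. Risen factors numbered 2 with knockout 1 and 4 alone, and 0 with knockout 2 and 3 alone and for wild type 2, 3 and 4 against knockout 2 and 3. Fallen factors numbered 1 without a filter and in DESeq2, and 0 under those same 2 subsets.

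Genes that did not pass changed sign as follows. Ndufa12 was −0.50 with knockout 2 and 3 alone, −0.70 for wild type 2, 3 and 4 against knockout 2 and 3, and −0.58 to 0.71 with a library left out. Under the same 2 subsets Ndufb5 was 0.0020 and 0.049, and it was 0.028 without a filter and −0.058 to 0.045 with a library left out. Ndufa13 was −0.050 with knockout 2 and 3 alone. Ndufc2 was 0.083 for wild type 2, 3 and 4 against knockout 2 and 3, and −0.14 to 0.0026 with a library left out. Ndufs3 was −0.027 with library totals and −0.039 to 0.061 with a library left out. Ndufv2 was −0.0014 with library totals, −0.027 with knockout 1 and 4 alone and −0.0033 to 0.081 with a library left out. The causes were not tested. Library totals moved the median of all genes to −0.051, with 1745 higher and 2689 lower against 2272 and 2108.

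With the replicate number as a block, 17 subunits rose and 1 fell (4936 of all genes called, against 4380). Deviations of same-numbered libraries correlated at 0.0906, 0.0507, 0.0524 and 0.0543, and those of unlike number at −0.0931 to 0.0575. Wild type 3 correlated slightly better with knockout 2 (0.0575) than with its own number. Whether a shared number marks a shared mouse, culture or day is not stated in the sources and was not tested. Depth limits Ndufa4l2, with 0 to 2 counts a library.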
